A study of Mus musculus with 8 samples.

Results

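The genes described here are 34 genes of the epidermal lipid barrier: those that make ceramide and acylceramide, pack and secrete lipid, break ceramide precursors down outside the cell, and join lipid to the cornified envelope. They were chosen by symbol from the knowledge of the pathway, and all 34 were found among the 26202 genes of the deposited expression table. Of these, 31 had at least 1 RPKM (reads per kilobase of gene, corrected for library size) in at least 2 of the 8 libraries and were tested. Fa2h, Sdr9c7 and Lipn did not reach that level and are given as values. Pnpla1, Acer1 and Alox12b reached it through AdGFP libraries alone and Lipk through its AdDlx3 libraries, so the differences of these 4 are given as descriptions. The other 27 reached it in at least 2 libraries of each virus.

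Ceramides are built from a sphingoid base and a fatty acid. In the upper epidermis, fatty acids of unusual length are hydroxylated at their far end, joined to the base by a ceramide synthase and esterified to linoleate, which gives acylceramide. Acylceramide, glucosylceramide and sphingomyelin are packed into lamellar bodies and secreted, then trimmed by hydrolases and oxidised by lipoxygenases so that ceramide can be bound to the protein envelope. In humans, loss of several of these genes, among them CERS3, NIPAL4, ABCA12 and ALOX12B, causes congenital ichthyosis.

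Cells were taken from the skin epidermis of transgenic mouse pups on postnatal day 0 or 1, either Dlx3WT or Dlx3KO, and plated. After 24 h they received an adenovirus, AdGFP (green fluorescent protein, the control) or AdDlx3 (the homeobox transcription factor Dlx3), so every library comes from virus-treated cells. Each of the 4 groups, AdGFP wild-type cells, AdDlx3 wild-type cells, AdGFP knockouts and AdDlx3 knockouts, had 2 libraries of polyadenylated RNA. Replicate 1 of every group belongs to batch A of the deposited sample sheet and replicate 2 to batch B. The part of Dlx3 that the knockout removes, any cell type that drives the deletion, the time from virus to harvest and the number of pups behind a library are not given in the labels. Nor do they say whether replicates came from separate cultures, so p-values measure the spread between these libraries, which may be technical.

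The libraries held 73688944 to 124857742 alignments, and 11011 to 11594 genes reached 1 RPKM. Dlx3 itself was at 1.71 and 1.77 RPKM in AdGFP wild-type cells, 0.656 and 0.558 in AdGFP knockouts, 237 and 782 in AdDlx3 wild-type cells and 402 and 539 in AdDlx3 knockouts. All 8 keratinocyte markers (Krt5, Krt14, Trp63, Cdh1, Perp, Dsg3, Krt1 and Krt10) were measured, and none was under 0.1 RPKM in all libraries. Their summed level was 11581 to 18367 RPKM in the 4 AdGFP libraries, 9051 and 7342 in the batch A AdDlx3 libraries, and 1046 and 1306 in the batch B AdDlx3 libraries. Krt5 and Krt14 made up most of the sum in AdGFP, at 9244 and 7065 RPKM in wild-type cells of batch A. Krt10 went the other way in all 4 pairs of same-batch, same-genotype libraries. In wild-type cells of batches A and B it was at 20.1 and 7.93 RPKM with AdGFP and 140 and 10.7 with AdDlx3. In bulk RNA, fewer cells of a type and less RNA per cell cannot be told apart. The part of these marker shifts in the results on lipid genes was not tested.

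The main question was how added Dlx3 altered these genes across wild-type and knockout cells, 4 libraries per virus. Ceramide and lipid genes moved both ways: of the 31 tested, 4 rose (Cers4, Smpd1, Cers2 and Gba2), 4 fell (Nipal4, Cyp4f39, Sult2b1 and Cers3), and 23 did not pass (limma at 0.05 with Benjamini-Hochberg adjustment). Of the 12090 genes tested, 29.2% passed, 23.4% as higher and 5.74% as lower with AdDlx3. The 4 genes that fell act in acylceramide synthesis or are tied to lipid secretion and cholesterol sulphation. Of the 4 that rose, Cers2 and Cers4 are ceramide synthases, and Smpd1 and Gba2 encode hydrolases of sphingomyelin and glucosylceramide.

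The median log2 change over the 31 genes was -0.19, against 0.22 over all genes tested, and 22 of the 31 had a negative change against 28.5% of all genes. All 4 AdDlx3 libraries were above all 4 AdGFP libraries for Cers2, Cers4, Smpd1 and Gba2, which was true of 29.6% of all genes. All 4 AdDlx3 libraries were below for Cers3 and Nipal4, which was true of 6.27% of all genes. Within each pair of same-batch, same-genotype libraries, 15 of the 31 genes were lower with AdDlx3 in all 4 pairs (13.2% of all genes) and 7 were higher in all 4 (46.5% of all genes). Pnpla1, Acer1 and Alox12b are among the 15, and the filter chose them by their AdGFP level. Lipk is among the 7, and reached the minimum level through its AdDlx3 libraries. The median includes all 4 of these genes, and the 22 negative changes include Pnpla1, Acer1 and Alox12b.

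**Figure D1:**
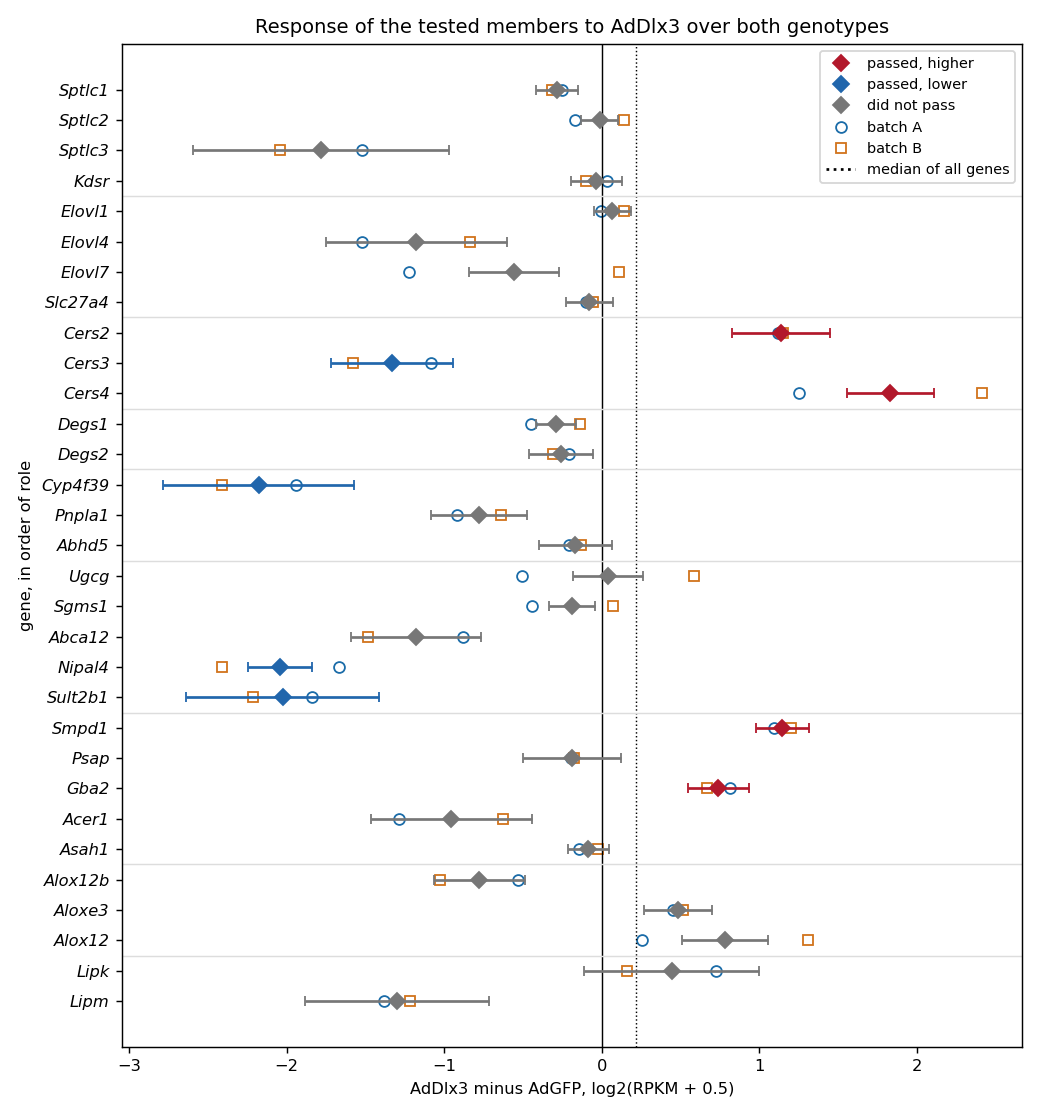
Difference between AdDlx3 and AdGFP over both genotypes (horizontal axis, log2(RPKM + 0.5)) for the 31 tested genes in order of role; diamonds are limma estimates with bars of 1 standard error, red where higher and blue where lower with an adjusted p under 0.05, open circles and squares are batches A and B, and the dotted line is the median of all genes at 0.22. Nipal4, Cyp4f39 and Sult2b1 lie near -2 and Cers4 at 1.83, and the batches lie far apart for Elovl7, Ugcg, Cers4 and Alox12.

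The calls depended on scaling and on the batch. When libraries were rescaled by median-of-ratios size factors, which moved the median change of all genes from 0.22 to -0.06, 2 of the 31 genes were higher and 8 lower, against 9.67% and 12.1% of all genes. With the batch as a replicate block, 6 were higher and 12 lower, against 38.0% and 10.9% of all genes. With both, 4 were higher and 21 lower, against 17.2% and 22.7%. These counts include genes that reached the minimum level through 1 virus. Over the 27 others, 4 were higher and 4 lower as reported, 2 and 7 after scaling, 6 and 9 with the block, and 4 and 18 with both.

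Nipal4 encodes ichthyin, a membrane protein needed for acylceramide formation and mutated in human ichthyosis. It had the smallest p of the 31 genes tested. It was at 32.3 and 36.4 RPKM in AdGFP wild-type cells (batch A, then batch B, here and below) and at 11.8 and 5.59 in AdDlx3 wild-type cells. In knockout cells it was at 44.0 and 49.7 RPKM with AdGFP and at 11.2 and 10.3 with AdDlx3. Every AdDlx3 library lay below every AdGFP library, and the batches lay close together under AdGFP. Group means were 34.4 ± 2.93 RPKM in AdGFP wild-type cells, 8.68 ± 4.37 in AdDlx3 wild-type cells, 46.9 ± 4.08 in AdGFP knockouts and 10.7 ± 0.673 in AdDlx3 knockouts (SD, n = 2 each, as for all group means below). Nipal4 fell by 2.04 ± 0.21 log2 units (SE, limma adjusted p = 0.000752), a 4.12-fold difference on the log2(RPKM + 0.5) scale, and kept its call whichever library was left out.

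Cers4, a ceramide synthase gene of fatty acids of intermediate length, was at 1.01 and 1.01 RPKM in AdGFP wild-type cells and 2.93 and 6.35 in AdDlx3 wild-type cells. In knockout cells it was at 1.09 and 0.667 RPKM with AdGFP and 3.47 and 6.80 with AdDlx3. All AdDlx3 libraries were higher than all AdGFP libraries, with batch B above batch A under AdDlx3. Group means were 1.01 ± 0.00496 RPKM in AdGFP wild-type cells, 4.64 ± 2.42 in AdDlx3 wild-type cells, 0.878 ± 0.298 in AdGFP knockouts and 5.13 ± 2.36 in AdDlx3 knockouts. Cers4 rose by 1.83 ± 0.28 log2 units (limma adjusted p = 0.0033) and kept its call whichever library was left out.

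Smpd1 encodes acid sphingomyelinase, which turns sphingomyelin into ceramide in the extracellular layers of the barrier and in lysosomes. Its level was 10.7 and 10.1 RPKM in AdGFP wild-type cells, 22.2 and 21.4 in AdDlx3 wild-type cells, 12.6 and 7.99 in AdGFP knockouts and 29.2 and 21.2 in AdDlx3 knockouts. The viruses did not overlap. Mean levels were 10.4 ± 0.440 RPKM and 21.8 ± 0.521 in wild-type cells with AdGFP and AdDlx3, and 10.3 ± 3.29 and 25.2 ± 5.65 in knockout cells. Smpd1 rose by 1.15 ± 0.17 log2 units (limma adjusted p = 0.0031), by 1.09 (batch A) and 1.20 (batch B), and kept its call whichever library was left out.

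**Figure D2:**
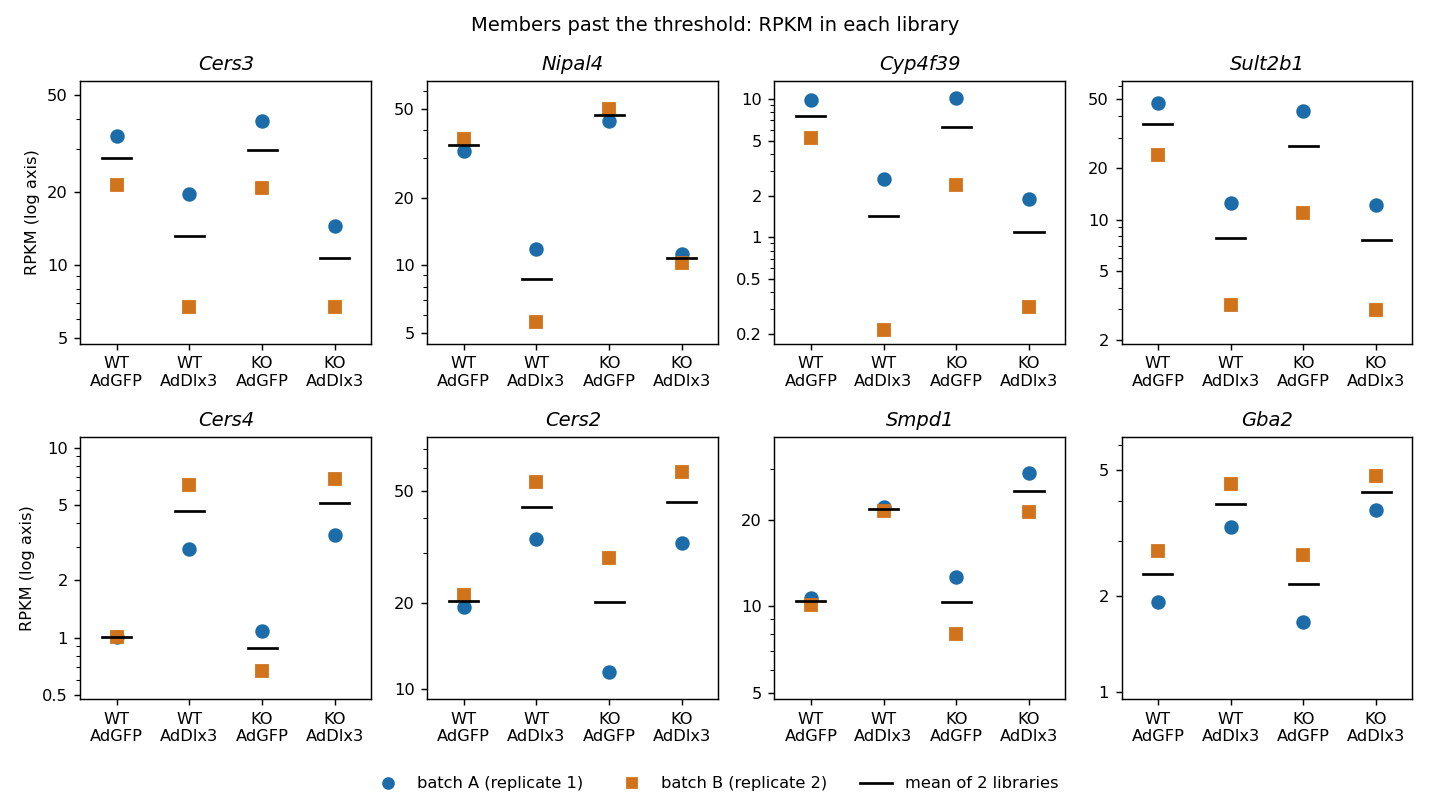
RPKM of the 8 genes that passed in each of the 8 libraries (vertical axes are logarithmic, with a range of their own per gene); circles are batch A, squares batch B and lines the mean of 2 libraries. Nipal4 and Cers3 lie lower in every AdDlx3 library than in any AdGFP library, and Cers2, Cers4, Smpd1 and Gba2 higher.

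The promoters of the 3 genes above, and of Cers3, which fell with AdDlx3, are shown as the sequences on which a Dlx homeodomain motif was sought. They are RefSeq sequences on GRCm38.p6, from 250 bases before to 50 bases after the annotated start, on the gene's own strand. They are Nipal4 (chr11:46166310-46166609, minus strand), Cers3 (chr7:66743254-66743553, plus strand), Cers4 (chr8:4493155-4493454, plus strand) and Smpd1 (chr7:105554110-105554409, plus strand). Capitals mark the homeodomain core TAATTG, searched on both strands and so also read as CAATTA. It was found in Cers3 as CAATTA, 205 bases before the start, and not in the other promoters printed.
Nipal4: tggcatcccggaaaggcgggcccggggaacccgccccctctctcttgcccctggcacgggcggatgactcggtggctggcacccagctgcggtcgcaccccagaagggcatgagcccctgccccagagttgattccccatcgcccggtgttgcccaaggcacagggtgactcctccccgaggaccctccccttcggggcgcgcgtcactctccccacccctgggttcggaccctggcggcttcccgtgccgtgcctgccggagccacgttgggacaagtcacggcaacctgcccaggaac
Cers3: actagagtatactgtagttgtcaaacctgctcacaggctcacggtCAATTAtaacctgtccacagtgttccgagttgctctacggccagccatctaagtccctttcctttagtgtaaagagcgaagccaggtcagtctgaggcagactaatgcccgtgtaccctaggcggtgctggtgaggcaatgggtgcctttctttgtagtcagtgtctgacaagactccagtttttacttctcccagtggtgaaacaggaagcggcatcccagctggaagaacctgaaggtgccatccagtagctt
Cers4: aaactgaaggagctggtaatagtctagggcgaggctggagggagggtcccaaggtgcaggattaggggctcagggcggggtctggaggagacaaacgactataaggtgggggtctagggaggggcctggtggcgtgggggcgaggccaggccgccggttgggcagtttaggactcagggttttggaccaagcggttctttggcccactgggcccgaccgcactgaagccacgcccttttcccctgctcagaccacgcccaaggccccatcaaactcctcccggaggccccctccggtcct
Smpd1: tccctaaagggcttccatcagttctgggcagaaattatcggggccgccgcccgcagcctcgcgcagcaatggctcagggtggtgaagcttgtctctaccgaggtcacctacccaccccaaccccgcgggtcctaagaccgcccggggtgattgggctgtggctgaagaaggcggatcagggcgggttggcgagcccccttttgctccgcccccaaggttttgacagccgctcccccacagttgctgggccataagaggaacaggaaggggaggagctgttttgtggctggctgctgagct
RefSeq held 37 promoter entries for 30 of the 34 genes. TAATTG was in 3 of the 37 (8.11%) and in 8% of all 32851 promoters in the table. The AP-1 core TGANTCA, also searched on both strands, was in 4 of the 37 (10.8%) and in 7.81% of all. It was in none of the 4 promoters printed. A match is a description of these letters only.

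Among the ceramide synthases, which each join a sphingoid base to fatty acids of a given length, the balance of the family differed between the viruses. Cers2 and Cers4 rose and Cers3 fell. Cers3, the synthase of the longest barrier fatty acids (chromosome 7, 66743504 to 66823691, plus strand, GRCm38), was at 33.8 and 21.4 RPKM in AdGFP wild-type cells and 19.5 and 6.69 in AdDlx3 wild-type cells. In knockout cells it was at 39.0 and 20.7 RPKM with AdGFP and 14.5 and 6.74 with AdDlx3. The highest AdDlx3 value, in batch A, came close to the lowest AdGFP value, in batch B. Mean levels were 27.6 ± 8.78 RPKM and 13.1 ± 9.07 in wild-type cells with AdGFP and AdDlx3, and 29.8 ± 12.9 and 10.6 ± 5.51 in knockout cells. Cers3 fell by 1.33 ± 0.39 log2 units (limma adjusted p = 0.0360), by 1.08 in batch A and 1.58 in batch B.

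Cers2, the synthase of very long chain ceramides found in most tissues (chromosome 3, 95314791 to 95323599, plus strand), was at 19.4 and 21.4 RPKM in AdGFP wild-type cells and 33.6 and 53.6 in AdDlx3 wild-type cells. In knockout cells it was at 11.5 and 29.0 RPKM with AdGFP and 32.6 and 58.2 with AdDlx3. Every AdDlx3 library was above every AdGFP library, and batch B was above batch A in each group. Cers2 rose by 1.14 ± 0.31 log2 units (limma adjusted p = 0.0294), but not after median-of-ratios scaling (limma adjusted p = 0.0889, and 0.0054 with scaling and the batch block).

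The 6 ceramide synthase genes Cers1 to Cers6 summed to 75.2 to 97.9 RPKM in a library. Cers3 made up 38.5% and 27.3% of that sum in AdGFP wild-type cells, 22.9% and 7.35% in AdDlx3 wild-type cells, 44.5% and 22.7% in AdGFP knockouts and 19.3% and 6.89% in AdDlx3 knockouts. Cers2 made up 22.1% and 27.4% in AdGFP wild-type cells, 39.4% and 58.9% in AdDlx3 wild-type cells, 13.1% and 31.7% in AdGFP knockouts and 43.4% and 59.5% in AdDlx3 knockouts. The Cers2 share was higher in every AdDlx3 library than in any AdGFP library; for Cers3, AdDlx3 wild-type cells of batch A and AdGFP knockouts of batch B were level. The ratio of Cers3 to Cers4 RPKM was 33.6 and 21.1 in AdGFP wild-type cells, 6.66 and 1.05 in AdDlx3 wild-type cells, 35.8 and 31.1 in AdGFP knockouts and 4.19 and 0.990 in AdDlx3 knockouts. Shares are of RPKM, a level per length, and not of enzyme or lipid.

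**Figure D3:**
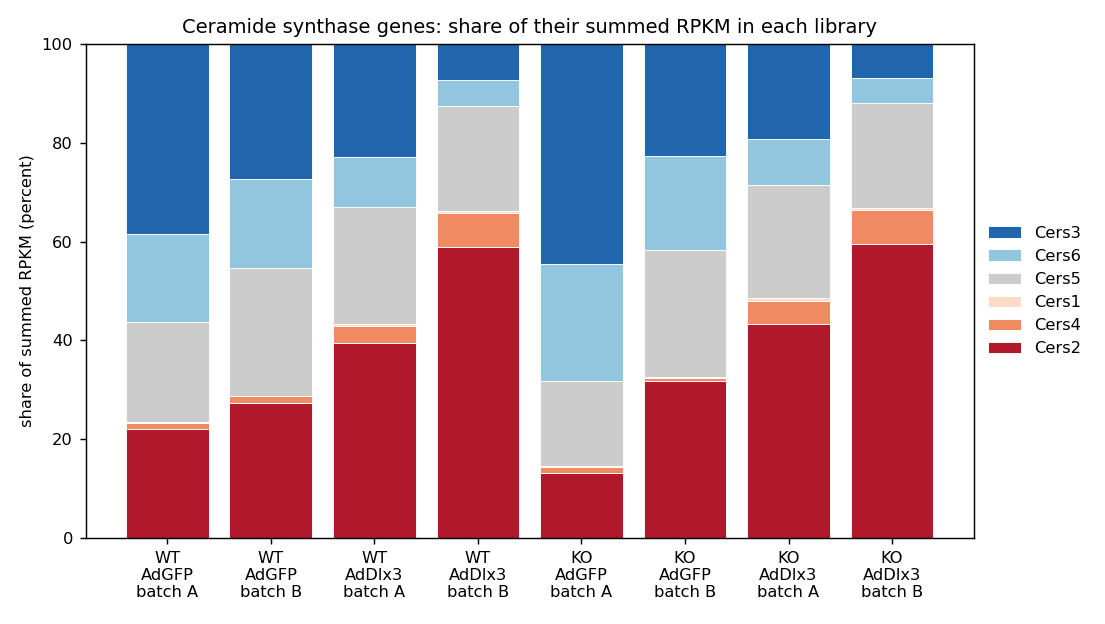
Share of the summed RPKM of Cers1 to Cers6 (vertical axis, percent, each bar adding to 100) taken by each gene in each of the 8 libraries. Cers2 grows from between 13.1% and 31.7% in AdGFP to between 39.4% and 59.5% in AdDlx3, and Cers3 shrinks from between 22.7% and 44.5% to between 6.89% and 22.9%.

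In sphingoid base synthesis no gene of 4 passed in the fit as reported. Sptlc1, the shared subunit of serine palmitoyltransferase, was at 25.7, 21.0, 28.1 and 25.0 RPKM in AdGFP (wild type A and B, knockout A and B) and at 23.3, 17.9, 21.6 and 18.8 in AdDlx3 in the same order. It was lower with AdDlx3 in all 4 pairs, and its log2 difference was -0.28 ± 0.13 (limma adjusted p = 0.144, 0.0365 with the batch block and 0.0201 after scaling). Sptlc3, an alternative catalytic subunit that also accepts shorter acyl chains, was at 10.5, 2.50, 12.4 and 2.56 RPKM in AdGFP and at 4.66, 0.198, 2.85 and 0.272 in AdDlx3. Batch B lay below batch A in both viruses, and each AdDlx3 library lay below its pair. The log2 difference of Sptlc3 was -1.78 ± 0.81 (limma adjusted p = 0.131, and 0.000225 with the batch block). Sptlc2, the main catalytic subunit, was between 12.5 and 16.0 RPKM in every library, and Kdsr, which reduces the first product, between 5.98 and 9.35; their log2 differences were -0.01 and -0.03. As a share of Sptlc2 and Sptlc3 together, Sptlc3 was 39.7%, 16.6%, 43.8% and 14.7% in AdGFP and 24.0%, 1.30%, 17.4% and 1.75% in AdDlx3.

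The 4 genes that elongate or activate long fatty acids did not pass in that fit either. Elovl4, the elongase of the longest barrier fatty acids, was at 18.2, 6.99, 23.3 and 3.99 RPKM in AdGFP and at 7.28, 3.01, 6.44 and 2.51 in AdDlx3, lower with AdDlx3 in every pair. Its log2 difference was -1.18 ± 0.57 (limma adjusted p = 0.155, and 0.0022 with the batch block). Elovl7, an elongase of long and very long chains, was at 25.4, 12.8, 31.0 and 15.5 RPKM in AdGFP and at 13.0, 14.8, 10.5 and 15.7 in AdDlx3. Its direction differed between the batches, as described further on. Elovl1, an elongase of very long saturated chains, was the highest of the 4 at 46.8 to 58.3 RPKM, with a log2 difference of 0.07, or -0.23 after scaling. Slc27a4, a fatty acid transport protein with acyl-CoA synthetase activity, was between 11.1 and 15.7 RPKM, and its log2 difference was -0.08.

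Neither of the 2 tested genes of desaturation and hydroxylation passed in the fit as reported. Degs1, the dihydroceramide desaturase, was among the most abundant members at 76.1 to 112 RPKM, with a log2 difference of -0.29 ± 0.13 (limma adjusted p = 0.117, 0.0160 after scaling and 0.0493 without replicate 2 of AdGFP wild-type cells). Degs2, which makes the hydroxylated phytoceramides, was at 0.712 to 1.64 RPKM. Fa2h, the fatty acid alpha-hydroxylase gene, was listed at 0, 0.0113, 0 and 0 RPKM in AdGFP and at 0.0545, 0.192, 0.0736 and 0.110 in AdDlx3, so every AdDlx3 library was above every AdGFP library at levels under 0.2 RPKM. With no filter on low values it had a log2 difference of 0.27 (limma adjusted p = 0.0416).

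In acylceramide formation, Cyp4f39, the mouse counterpart of the omega-hydroxylase CYP4F22 (chromosome 17, 32452723 to 32493320, plus strand), fell. It was at 9.88 and 5.19 RPKM in AdGFP wild-type cells, 2.65 and 0.212 in AdDlx3 wild-type cells, 10.1 and 2.37 in AdGFP knockouts and 1.87 and 0.314 in AdDlx3 knockouts. AdDlx3 wild-type cells of batch A lay above AdGFP knockouts of batch B, so the groups overlapped, and each AdDlx3 library was below its pair. Cyp4f39 fell by 2.18 ± 0.61 log2 units (limma adjusted p = 0.0313), by 1.94 in batch A and 2.41 in batch B. Pnpla1, the transacylase that joins linoleate to the hydroxylated ceramide, was at 1.55, 0.960, 1.95 and 0.552 RPKM in AdGFP and 0.733, 0.273, 0.641 and 0.318 in AdDlx3, lower in every pair. Its log2 difference was -0.78, given without a test since it was selected by its AdGFP level. Abhd5, the cofactor of Pnpla1 and of a triglyceride lipase, was at 11.1 to 21.1 RPKM with a log2 difference of -0.17.

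In packing, loading and transport, Nipal4 and Sult2b1 fell. Sult2b1 encodes the sulfotransferase that makes cholesterol sulfate (chromosome 7, 45729983 to 45784669, minus strand). Its level was 48.0 and 23.7 RPKM in AdGFP wild-type cells, 12.5 and 3.17 in AdDlx3 wild-type cells, 42.9 and 10.9 in AdGFP knockouts and 12.1 and 2.99 in AdDlx3 knockouts. The knockout batch B AdGFP culture lay just under both batch A AdDlx3 cultures, so the groups overlapped there. Sult2b1 fell by 2.03 ± 0.61 log2 units (limma adjusted p = 0.0407), by 1.84 in batch A and 2.22 in batch B.

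Abca12, the transporter that loads lipid into lamellar bodies, was at 21.2, 12.7, 18.4 and 10.6 RPKM in AdGFP and at 14.1, 3.51, 7.75 and 4.21 in AdDlx3, and was lower in every pair. Its log2 difference was -1.18 ± 0.41 (limma adjusted p = 0.0647, 0.0017 with the batch block and 0.0397 after scaling). Ugcg, the glucosylceramide synthase, was at 10.3, 6.0, 9.98 and 7.31 RPKM in AdGFP and at 7.54, 10.6, 6.42 and 9.80 in AdDlx3, and its log2 difference was 0.04, or -0.24 after scaling. Sgms1, a sphingomyelin synthase, was at 18.4 to 33.0 RPKM with a difference of -0.19. The ratio of Smpd1 to Sgms1 was 0.332 to 0.538 in AdGFP and 0.951 to 1.29 in AdDlx3, with no overlap. It leaves out Sgms2, another sphingomyelin synthase outside the members, named after its value was seen. Sgms2 was at 1.16, 2.27, 1.05 and 3.22 RPKM in AdGFP and at 2.74, 5.51, 2.89 and 7.10 in AdDlx3, higher in every pair.

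Among the 5 genes of hydrolysis and breakdown, Smpd1 and Gba2 rose. Gba2, the glucosylceramidase that acts outside lysosomes (chromosome 4, 43566928 to 43578873, minus strand), was at 1.92 and 2.78 RPKM in AdGFP wild-type cells, 3.30 and 4.52 in AdDlx3 wild-type cells, 1.66 and 2.71 in AdGFP knockouts and 3.76 and 4.78 in AdDlx3 knockouts. Every AdDlx3 library was above every AdGFP library. Gba2 rose by 0.74 ± 0.19 log2 units (limma adjusted p = 0.0246), but did not pass after scaling (limma adjusted p = 0.110, and 0.0074 with scaling and the block).

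The remaining breakdown genes did not pass. Psap, the precursor of the saposin activators and the most abundant member in every library, was at 188 to 401 RPKM with a log2 difference of -0.19. Asah1, the acid ceramidase, was at 29.4 to 47.1 RPKM with a difference of -0.08. Acer1, the alkaline ceramidase of differentiating epidermis, was at 2.04, 0.716, 3.31 and 0.347 RPKM in AdGFP and at 0.902, 0.105, 0.663 and 0.212 in AdDlx3, lower in every pair. Its log2 difference, -0.96, is likewise a description.

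The lipoxygenase genes act in order on the linoleate of acylceramide: Alox12b oxidises it and Aloxe3 converts the product. Aloxe3 and Alox12b lie 7873 bases apart on chromosome 11. Alox12b was at 1.33, 1.14, 1.25 and 0.663 RPKM in AdGFP and at 0.625, 0.166, 0.866 and 0.193 in AdDlx3, lower in every pair. Its log2 difference, -0.78, is a description for the same reason. Aloxe3 was at 4.11, 6.0, 3.64 and 5.36 RPKM in AdGFP and at 5.94, 7.89, 5.04 and 8.82 in AdDlx3, higher in every pair. Its difference was 0.48 ± 0.22 (limma adjusted p = 0.128, and 0.0055 with the block). The ratio of Aloxe3 to Alox12b was 3.08, 5.26, 2.92 and 8.08 in AdGFP and 9.50, 47.4, 5.81 and 45.8 in AdDlx3. This ratio is a description as well, since it contains Alox12b. Its values of 47.4 and 45.8 rest on Alox12b at 0.166 and 0.193 RPKM. The viruses overlapped, with AdDlx3 knockouts of batch A at 5.81 and AdGFP knockouts of batch B at 8.08. Alox12, a lipoxygenase also known from platelets, was at 1.01, 0.912, 1.64 and 1.17 RPKM in AdGFP and at 1.10, 3.39, 2.37 and 3.21 in AdDlx3. Its difference was 0.78 ± 0.27 (limma adjusted p = 0.0630, and 0.0277 with the block). Sdr9c7, which oxidises the epoxy alcohol product, was at 0.888, 0.448, 1.02 and 0.234 RPKM in AdGFP and at 0.810, 0.0663, 0.719 and 0.117 in AdDlx3.

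The 3 acid lipase genes, expressed in differentiated epidermis, lie together on chromosome 19, with 19522 bases between Lipk and Lipn and 16014 between Lipn and Lipm. Lipm was at 5.06, 1.86, 6.75 and 1.20 RPKM in AdGFP and at 2.43, 0.388, 1.53 and 0.336 in AdDlx3, lower in every pair, with a log2 difference of -1.30 ± 0.59 (limma adjusted p = 0.129, and 0.00061 with the block). Lipk was at 0.961, 0.225, 1.28 and 0.199 RPKM in AdGFP and at 2.72, 0.394, 1.71 and 0.207 in AdDlx3. Lipn was under 1 RPKM in every library, at 0.188 to 0.526 in AdGFP and 0.0634 to 0.326 in AdDlx3. The log2 difference of Lipk, 0.44, is a description, since Lipk reached the minimum level through its AdDlx3 libraries.

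**Figure D4:**
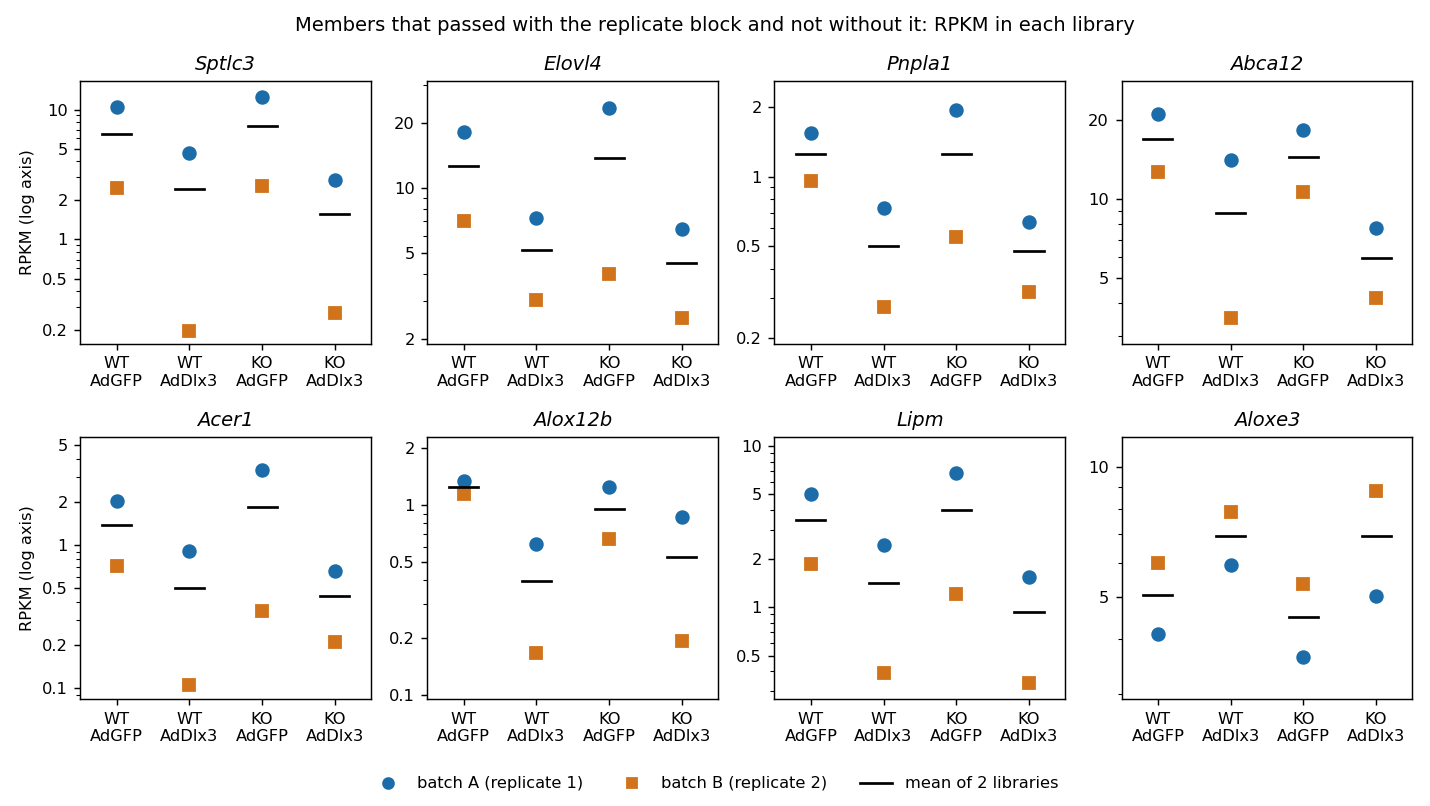
RPKM in each of the 8 libraries for 8 of the genes that passed with the batch block and not without it (vertical axes are logarithmic, with a range of their own per gene); circles are batch A, squares batch B and lines the mean of 2 libraries. Within a batch and genotype, AdDlx3 lies below AdGFP for the first 7 genes and above it for Aloxe3, while batch B lies below batch A for those 7 in every group. Pnpla1, Acer1 and Alox12b reached 1 RPKM through AdGFP alone, so their panels show values and support no call.

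The calls rested unevenly on the libraries in the fit without the batch block, the one used for leaving libraries out. With the block and all libraries, the limma adjusted p was 0.0012 for Cers2, 0.000322 for Cers3, 0.000183 for Cyp4f39, 0.000169 for Sult2b1 and 0.000998 for Gba2. Libraries are named here by virus, genotype and replicate number. Nipal4, Cers4 and Smpd1 passed whichever single library was left out. Cers2, Cyp4f39 and Sult2b1 lost their call without AdGFP wild-type 1, AdGFP wild-type 2, AdDlx3 wild-type 2, AdGFP knockout 1 or AdDlx3 knockout 2. The limma adjusted p without each of these, in that order, was 0.0719, 0.0659, 0.0762, 0.0537 and 0.0744 for Cers2. For Cyp4f39 it was 0.0864, 0.0647, 0.0691, 0.0793 and 0.0787, and for Sult2b1 it was 0.109, 0.0784, 0.0976, 0.102 and 0.10. Cers3 lost its call without the same 5 libraries, at 0.0958, 0.0576, 0.0875, 0.0912 and 0.0887, and without AdGFP knockout 2, at 0.0505. Gba2 lost its call without AdGFP wild-type 1 (0.0778), AdDlx3 wild-type 2 (0.0671), AdGFP knockout 1 (0.0598) or AdDlx3 knockout 2 (0.0694). With no filter on low values, which tests more genes, these 5 calls were also lost, at 0.0668 for Cers2, 0.0817 for Cers3, 0.0757 for Cyp4f39, 0.0932 for Sult2b1 and 0.0559 for Gba2.

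Within each genotype the comparison rested on 2 libraries a group. In wild-type cells Nipal4 fell by 2.01 ± 0.31 log2 units (limma adjusted p = 0.0314), no other member passed, and none rose; over all genes 2.62% passed, 2.27% as higher and 0.356% as lower. In knockout cells Nipal4 fell by 2.07 ± 0.31 (limma adjusted p = 0.0246), Smpd1 rose by 1.26 ± 0.25 (0.0421) and Cers4 rose by 1.98 ± 0.42 (0.0477); over all genes 5.32% passed, 4.43% as higher and 0.893% as lower. In wild-type cells the differences of Cers4, 1.68 ± 0.42 (limma adjusted p = 0.0820), and Smpd1, 1.03 ± 0.25 (0.0805), did not pass. Nipal4 in wild-type cells passed without AdDlx3 wild-type 1 and had a limma adjusted p of 0.0523 to 0.246 without any other library. In knockout cells the calls held for Nipal4 and Cers4 only without AdDlx3 wild-type 1 or 2; without any other library the limma adjusted p was 0.0676 to 0.129 for Nipal4 and 0.102 to 0.188 for Cers4. Smpd1 in knockout cells lost its call whichever library was left out, at 0.0514 to 0.161, and after scaling, at 0.0929, as did Cers4, at 0.0775, which also did not pass with a pseudocount of 1 (0.0533). With no filter none of these calls within a genotype held, at 0.0533 to 0.103. With the block, 4 members were higher and 9 lower in wild-type cells (16.6% and 5.41% of all genes), and 5 were higher and 8 lower in knockout cells (18.9% and 5.67%). After scaling, 0 were higher and 1 lower in wild-type cells (0.811% and 0.471% of all genes), and 0 and 1 in knockout cells (1.63% and 1.26%). With both, 2 were higher and 10 lower in wild-type cells (6.46% and 9.32%), and 4 and 13 in knockout cells (8.41% and 10.2%).

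No member passed the interaction test, which asks whether the response to AdDlx3 differs between genotypes (0 of 31 past the threshold by limma, 0 at an unadjusted p under 0.05, and 0% of all genes past the threshold, 40 at an unadjusted p under 0.05). The interval of the difference between genotypes in the response was -1.12 to 0.99 log2 units for Nipal4, -1.11 to 1.71 for Cers4, -0.62 to 1.08 for Smpd1 and -2.26 to 1.70 for Cers3. These widths do not show that the genotypes respond alike.

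Knockout and wild-type cells were compared next, to ask whether the loss of Dlx3 moved the same genes. No member passed, over both viruses, in AdGFP or in AdDlx3 (limma; 0% of all genes passed in each). At an unadjusted p under 0.05 there were 0 members of 31 over both viruses (194 genes in all), 1 in AdGFP (121 genes) and 0 in AdDlx3 (45 genes). The 1 in AdGFP was Asah1, named after its value was seen, at 37.5 and 29.4 RPKM in wild type and 47.1 and 43.1 in knockout, a difference of 0.44 log2 units with an interval of 0.01 to 0.86. The median size of the genotype difference was 0.082 log2 units over both viruses and 0.148 in AdGFP, against 0.741 for the virus. Knockouts given AdDlx3 held 402 and 539 RPKM of Dlx3, so only the AdGFP comparison concerns its loss. AdGFP wild-type cells held 1.71 and 1.77 RPKM of Dlx3, and these results do not show that its loss leaves the genes unchanged. Nipal4 was 0.41 log2 units higher in knockout cells over both viruses, with an interval of -0.06 to 0.88.

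The batches also lay apart in the control cultures, where no Dlx3 was added. Of the 31 tested members, 22 were lower in both batch B AdGFP libraries than in both batch A AdGFP libraries (71%, against 33.4% of all genes), and 4 were higher (12.9%, against 27.6%). The ratio of batch B to batch A over AdGFP was 0.19 for Lipk, 0.20 for Acer1, 0.22 for Sptlc3, 0.26 for Elovl4, 0.26 for Lipm and 0.38 for both Cyp4f39 and Sult2b1. It was 1.13 for Nipal4, 1.54 for Gba2 and 1.63 for Cers2. Lipk, Acer1 and Pnpla1 reached 1 RPKM in batch A libraries alone, so the filter chose them by their batch A level. They are among the 22, and their ratios are descriptions. The labels do not say what sets the batches apart.

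The response to AdDlx3 also differed between the batches for 4 of the 31 members by the test of virus by batch (limma adjusted p under 0.05), all more positive in batch B; over all genes 14.0% passed, 5.43% as more positive and 8.56% as less. Elovl7 changed by -1.23 in A and 0.11 in B, a difference of 1.34 ± 0.21 (limma adjusted p = 0.0053, interval 0.86 to 1.81). Ugcg changed by -0.51 and 0.59, a difference of 1.10 ± 0.20 (0.0084). Cers4 changed by 1.25 and 2.41, a difference of 1.16 ± 0.23 (0.0128), and Alox12 by 0.26 and 1.31, a difference of 1.05 ± 0.29 (0.0385). Alox12 kept its call only without AdDlx3 knockout 1 or 2, with a limma adjusted p of 0.0771 to 0.196 without any other library, and Cers4 lost it without AdGFP knockout 1 (0.0543). Members less positive in batch B, 0 with all libraries, were 4 without AdDlx3 knockout 1, 2 without AdGFP knockout 2 and 1 without AdDlx3 knockout 2. With no filter on low values all 4 calls were lost, at 0.0738 for Elovl7, 0.0742 for Ugcg, 0.102 for Cers4 and 0.181 for Alox12. Cers4 was positive in both batches by different amounts, whereas Elovl7 and Ugcg had opposite signs. The keratinocyte marker Krt5 changed by -1.18 in batch A and -4.77 in batch B.

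**Figure D5:**
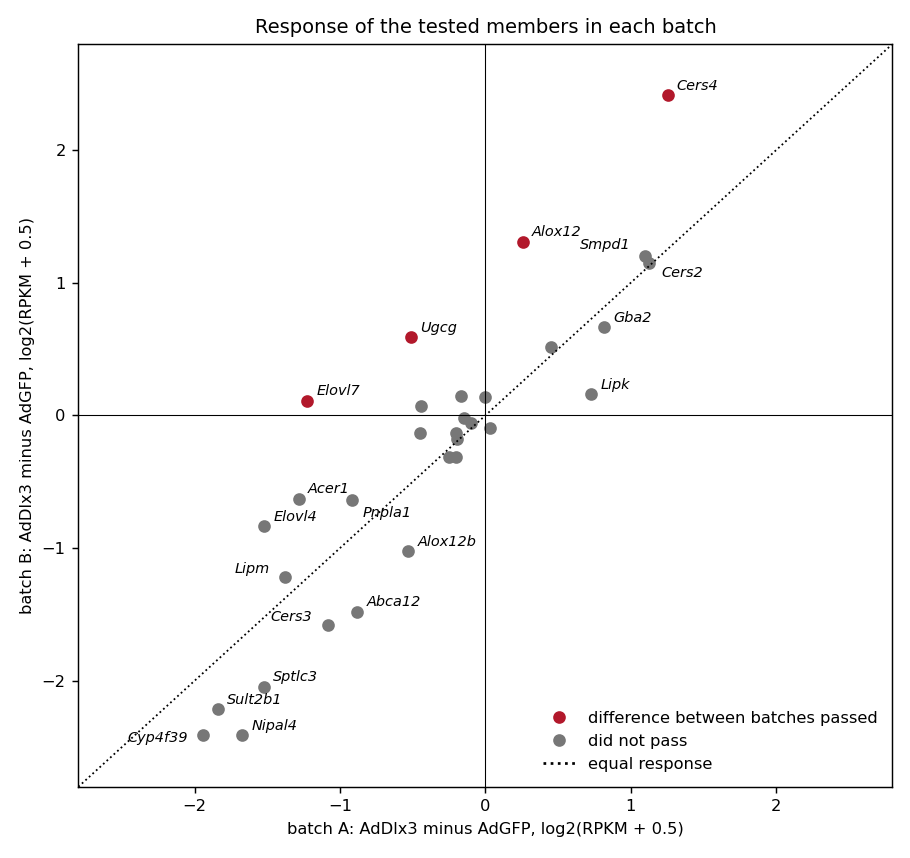
Difference between AdDlx3 and AdGFP (log2(RPKM + 0.5), mean over both genotypes) in batch A on the horizontal axis and batch B on the vertical axis for the 31 tested genes; the dotted line marks an equal response and red points passed the test of the difference between batches. Cers4, Alox12, Ugcg and Elovl7 lie above the line, and Nipal4, Cers3, Cyp4f39 and Sult2b1 are negative in both batches.

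Genes around the pathway were read from 3 further lists. Of 34 tested genes of other sphingolipid metabolism, 10 rose and 2 fell, with a median log2 change of 0.38. Over all genes tested 23.4% rose and 5.74% fell, with a median of 0.22. The 4 with the smallest adjusted p were all higher with AdDlx3: Plpp3, Asah2, Neu1 and Galc. Plpp3, a lipid phosphate phosphatase, was at 0.774 to 1.08 RPKM in AdGFP and 8.02 to 17.3 in AdDlx3. It reached the minimum level through AdDlx3 libraries, so this is a description. Asah2, the neutral ceramidase, rose by 3.01 ± 0.23 (limma adjusted p = 0.000310), Neu1, a lysosomal sialidase, by 1.41 ± 0.16 (0.0012) and Galc, the galactosylceramidase, by 1.38 ± 0.18 (0.0020). Cers6, a ceramide synthase of long chains named after its value was seen, fell by 1.38 ± 0.21 (limma adjusted p = 0.0036), and Cers5 had a difference of 0.03. After scaling this list had 6 higher and 6 lower, against 9.67% and 12.1% of all genes.

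Of 21 tested genes of fatty acid elongation and activation outside the members, 2 rose and 2 fell, and the median change was -0.10. Over all genes tested 23.4% rose and 5.74% fell, with a median of 0.22. Slc27a6, a fatty acid transport protein, fell by 1.10 ± 0.16 (limma adjusted p = 0.0030) and Aldh3a2, the fatty aldehyde dehydrogenase of Sjögren-Larsson syndrome, fell by 1.02 ± 0.19 (0.0065). Hacd3, a dehydratase of elongation, rose by 0.69 ± 0.12 (0.0061) and Elovl5 by 0.42 ± 0.13 (0.0414), but after scaling neither passed (0.0560 and 0.504). The list then had 0 higher and 7 lower, against 9.67% and 12.1% of all genes. Elovl5 passed without AdGFP knockout 2 or AdDlx3 knockout 1, and had a limma adjusted p of 0.0722 to 0.127 without any other library. Of 27 tested genes of lamellar body, triglyceride and envelope assembly, 5 rose and 10 fell, against 23.4% and 5.74% of all genes. Their median was -0.04. Loricrin (Lor), an envelope protein, rose by 2.75 ± 0.23 (limma adjusted p = 0.000381), while Cav1, a caveolar protein, fell by 0.96 ± 0.12 (0.0016) and Plin2, a lipid droplet protein, by 0.70 ± 0.12 (0.0055). Other envelope genes of this list, named after their values were seen, were lower with AdDlx3 in all 4 pairs. The ratio of AdDlx3 to AdGFP means was 0.39 for Evpl, 0.48 for Ppl, 0.36 for Tgm1 and 0.24 for Ivl. Ivl reached the minimum level through AdGFP alone. Ephx2, an epoxide hydrolase, was at 0.184 to 0.726 RPKM in AdGFP and 4.34 to 9.0 in AdDlx3, a description since it reached the minimum level through AdDlx3 alone. The counts of these lists include such genes.

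Markers of other cells were read beside these. Of 10 sebocyte markers 3 were tested, Fasn fell by 0.71 and Soat1 rose by 0.65 (limma adjusted p = 0.0133 and 0.0203). Soat1 did not pass after scaling (0.108) or without AdGFP wild-type 1, AdDlx3 wild-type 2, AdGFP knockout 1 or AdDlx3 knockout 2 (0.0694, 0.0558, 0.0570 and 0.0592). Elovl3 and Dgat2l6 were under 0.1 RPKM in every library. The summed level of the 10 sebocyte markers was 65.9 to 99.4 RPKM in AdGFP and 46.7 to 56.7 in AdDlx3. Most of this sum was Fasn, at 60.4 to 95.1 RPKM in AdGFP and 41.7 to 51.5 in AdDlx3, so it is not a measure of sebocytes. Platelet and immune markers, relevant to Alox12, summed to 1.66 to 3.51 RPKM in AdGFP and 2.53 to 4.26 in AdDlx3, with 3 of 6 tested and Ptprc under 0.1 in all. The platelet genes went different ways. Itga2b was at 0.691 to 1.12 RPKM in AdGFP and 1.14 to 1.89 in AdDlx3, and reached the minimum level through AdDlx3 libraries. Ppbp, not tested, was at 0.0514 to 0.280 and 0.0233 to 0.0753, lower in all 4 pairs. Pf4, not tested either, was lower with AdDlx3 in 2 pairs and higher in 1. Cd74, an antigen presentation gene, was 0.81 log2 units higher with AdDlx3, through which alone it reached the minimum level. Of 8 fibroblast markers 4 were tested, with 8.19 to 24.3 RPKM in AdGFP and 10.2 to 40.8 in AdDlx3. Col1a2 rose by 1.31 ± 0.39 (limma adjusted p = 0.0398) but did not pass after scaling (0.0968). It passed without AdGFP knockout 1 or AdDlx3 knockout 2 and had a limma adjusted p of 0.05004 to 0.113, not past the threshold, without any other library. With the block 2 fibroblast markers were higher (Col1a2 and Dcn) and 2 lower (Col1a1 and Col3a1), each in that direction in all 4 pairs. After scaling 0 were higher and 1 lower. Melanocyte markers, 6 of 6 tested, summed to 310 to 405 RPKM in the wild-type libraries and 159 to 267 in the knockout libraries. None of the 6 passed for the virus (1 was lower with the block and 2 after scaling), and none for genotype, where all 6 had negative differences with a median of -0.61. Kdr, the 1 of 3 endothelial markers tested, was at 0.742 to 1.91 RPKM in AdGFP and 0.310 to 0.593 in AdDlx3, lower in every AdDlx3 library, and reached the minimum level through AdGFP alone. Cdh5, also endothelial, and Adipoq and Lep, of 3 fat markers, were under 0.1 RPKM in every library. Of 8 keratinocyte markers Cdh1 alone passed in the fit as reported, falling by 0.90 (limma adjusted p = 0.0071). With the block 1 was higher and 7 lower, and after scaling 0 were higher and 4 lower. Over all genes 38.0% were higher and 10.9% lower with the block, and 9.67% and 12.1% after scaling. Krt5 and Krt14, like Cdh1, were lower in every AdDlx3 library than in any AdGFP library. Krt10 was higher with AdDlx3 in all 4 pairs. The part of these shifts in the lipid gene results was not tested.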

How the data were processed

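The data are RNA sequencing values of 8 libraries, 2 in each group. Names of the submitters' processing notes are bcl2fastq 2.20.0.422, TopHat2 2.1.1, Partek and mouse build mm10, with no role or order stated. Annotation, counting and strand settings were not given in the sources. RPKM values were deposited by the authors for 26202 genes, and a deposited sample sheet holds a count of alignments per library. A deposited table of the authors' own comparisons was not used here.

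From the deposited RPKM values, log2(RPKM + 0.5) was taken. Genes were kept where 2 or more of the 8 libraries had 1 RPKM or more, which left 12090. limma 3.58.1 in R 4.3.3, with an intensity trend, was applied to the 8 libraries jointly. An additive model of genotype and virus had 5 residual degrees of freedom, the 4-group model 4, and the model with virus by batch 3. Every p-value in the text is limma's, adjusted by Benjamini-Hochberg across the genes tested unless called unadjusted, with a threshold of 0.05. Intervals are 95% intervals. The log2(RPKM + 0.5) scale understates the change of low genes. RPKM values give no counts, so no counting interval is given.

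In the sample sheet replicate 1 is batch A and replicate 2 batch B, so the numbers pair the libraries. Departures from the group mean of libraries sharing a number correlated at 0.351 to 0.876 over 6 pairs of groups. The labels state no test, so the main fit has no block and the block is an alternative. Alternatives were pseudocounts of 0.1 and 1, no filter, median-of-ratios scaling, the replicate block and each library left out. The block together with scaling was added after seeing the data. The members and lists were chosen with earlier results of these data known. All members are reported, and from each other list up to 4 tested genes with the smallest adjusted p. Further genes of those lists were named after their values were seen. Gene positions are from GENCODE on GRCm38 (mm10) and promoters from RefSeq on GRCm38.p6.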

Additional observations from a re-analysis of the deposited data

Results flagged for a closer look

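The members Elovl7, Cers4, Ugcg and Alox12 were set apart because their response to AdDlx3 differed between the batches in a test of that difference. The response in batch B minus that in batch A was 1.34 log2 units for Elovl7, 1.16 for Cers4, 1.10 for Ugcg and 1.05 for Alox12. A search for a single library far from its group needs 4 libraries a group and was not possible with 2.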

How the results depend on the processing

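A pseudocount of 0.1 or 1 left the counts of members over both genotypes at 4 higher and 4 lower; in knockout cells a pseudocount of 1 left 1 member higher, and in the batch difference 0.1 gave 1 lower. Without the filter on low values, members lower over both genotypes were 1 and higher were 3, Fa2h among them. The same setting gave 0 lower in wild-type cells, 0 higher and 0 lower in knockout cells, and 0 more positive in batch B. All genes past the threshold were then 128 in wild-type and 363 in knockout cells, 241 for the batch difference, 1 for genotype in AdGFP, 4 for genotype in AdDlx3 and 4 for the interaction. After median-of-ratios scaling, members over both genotypes were 2 higher and 8 lower and members higher in knockout cells were 0. All genes were then 155 in wild-type and 349 in knockout cells. With the replicate block, members lower were 12 over both genotypes; members higher and lower were 4 and 9 in wild-type cells and 5 and 8 in knockout cells. All genes with the block were 5908 over both, 2657 in wild-type and 2976 in knockout cells. With the block and scaling, members lower over both were 21; members higher and lower were 2 and 10 in wild-type cells and 4 and 13 in knockout cells, and all genes were 1908 and 2250. The block changed no call of a member that passed without it over both genotypes.

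With 1 library left out, members over both genotypes were 2 to 5 higher and 1 to 5 lower, and all genes 2089 to 3307. Members were 0 to 1 higher and 0 to 1 lower in each genotype, and all genes 0 to 489 in wild-type and 4 to 733 in knockout cells. For the batch difference, members were 2 to 4 higher and 0 to 4 lower, and all genes 532 to 2465. A group left with 1 library was assumed to vary like the others. Differences that changed sign were those of members that did not pass: Elovl1 at -0.23 and Ugcg at -0.24 after scaling, with or without the block. With 1 library left out, Elovl1 ranged from -0.0044 to 0.14, Kdsr from -0.16 to 0.063, Psap from -0.42 to 0.012, Slc27a4 from -0.20 to 0.014, Sptlc2 from -0.097 to 0.038 and Ugcg from -0.13 to 0.18. The cause of these shifts was not tested. RPKM values carry no counts, so the depth limit on genes under 1 RPKM is unknown.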
